A study of Mus musculus with 12 samples.

Results

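Adenosine in the hippocampus is set by enzymes that make it outside the cell, enzymes that remove it and carriers that move it across membranes. The 10 genes described here were grouped under these roles: Entpd1, Entpd2, Entpd5, Entpd7 and Nt5e on the side of production, Adk, Ada and Pnp on the side of clearance, and Slc29a1 and Slc29a3 for transport. Of these, Entpd5 and Entpd7 encode relatives that act inside the secretory pathway, not outside the cell. The genes were listed by symbol and matched to the Ensembl identifiers of the count tables, where all 10 were found among the 25442 genes that the astrocyte and microglia tables share. RNA was sequenced from hippocampal cells of male C57Bl6/J mice that received AAV2/9 vectors into the CA1 at 2 months of age and were sorted at 4 months. The vector carried the murine A2A receptor (AAV-A2A) or eGFP (AAV-GFP, the control) behind GfaABC1D, a promoter chosen to act in astrocytes, so every animal carried a vector and there was no uninjected group. Hippocampi were taken for sorting, so the libraries can hold cells that the vector did not reach. ACSA-2 beads gave the astrocyte fraction, with 3 AAV-A2A libraries (A2A-309, A2A-310, A2A-313) and 3 AAV-GFP libraries (GFP-303, GFP-306, GFP-307). CD11b beads, applied to the cells that ACSA-2 left unlabelled, gave the microglia fraction, with A2A-2343, A2A-2344 and A2A-2347 against GFP-2328, GFP-2329 and GFP-2331. Each library carries its own number in its title. These numbers do not tell whether the fractions came from the same animals.

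Extracellular ATP and ADP are cut to AMP by ectonucleotidases such as CD39 (Entpd1) and its relative Entpd2, and AMP is cut to adenosine by CD73 (Nt5e). Adenosine enters cells through equilibrative transporters and is then phosphorylated back to AMP by adenosine kinase (Adk) or deaminated to inosine by adenosine deaminase (Ada), after which Pnp splits off the purine base. In the brain, adenosine kinase of astrocytes is regarded as the main sink, while CD39 is a well-known surface enzyme of microglia.

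The libraries held 33937067 to 53206974 counts on genes, which are PCR-amplified reads without molecular identifiers, so any limit based on counts covers counting error only. Adora2a, which the vector carries, was at 22.9 to 25.1 CPM (normalised counts, scaled to library size with TMM factors within the fraction) in AAV-GFP astrocytes and at 655 to 944 CPM in AAV-A2A astrocytes. In microglia it was at 3.96 to 8.06 and 16.3 to 43.2 CPM (log2 fold change 2.20, adjusted p = 0.280). The 10 astrocyte markers summed to 25030 to 39430 CPM in the astrocyte libraries and to 295 to 564 CPM in the microglia libraries, and the 10 microglial markers to 406 to 703 and 10080 to 72010 CPM. Within the microglia fraction, GFP-2328, GFP-2329 and A2A-2347 stood apart, because the 8 choroid plexus markers summed to 79220, 63920 and 32950 CPM there, against 98.0, 73.4 and 11.1 CPM in GFP-2331, A2A-2343 and A2A-2344. Of these 8 markers, 7 were above 0 in every microglia library. For the genes whose values moved most, log2 differences without these 3 libraries are given too. That fit held the other 9 libraries of both fractions, with GFP-2331 alone for AAV-GFP microglia, so its errors come from the spread of the other groups and assume that GFP-2331 varies like them.

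The stretches upstream of the start are shown for the 4 genes with the largest differences among those that passed the test between the fractions, so that a reader can compare the genes found mainly in astrocytes with those found mainly in microglia. Each is the 250 bases before a RefSeq start on GRCm38.p6, read along the gene's strand. Capitals mark the GC box core GGGCGG, the PU.1-type core GAGGAA, the cAMP response core TGACG and the TATA box TATAAA on either strand, which occur in 32.7%, 23.3%, 17.8% and 12.4% of all 32851 such RefSeq windows. In the first Adk window GGGCGG and TGACG lie side by side and share no letters.
Entpd2, chr2:25395624-25395873, plus strand: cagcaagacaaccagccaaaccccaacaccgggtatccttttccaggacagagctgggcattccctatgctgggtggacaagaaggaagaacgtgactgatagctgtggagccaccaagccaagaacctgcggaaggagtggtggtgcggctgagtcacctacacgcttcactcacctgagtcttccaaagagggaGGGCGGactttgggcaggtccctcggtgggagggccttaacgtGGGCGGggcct
Adk, first start, chr14:21052324-21052573, plus strand: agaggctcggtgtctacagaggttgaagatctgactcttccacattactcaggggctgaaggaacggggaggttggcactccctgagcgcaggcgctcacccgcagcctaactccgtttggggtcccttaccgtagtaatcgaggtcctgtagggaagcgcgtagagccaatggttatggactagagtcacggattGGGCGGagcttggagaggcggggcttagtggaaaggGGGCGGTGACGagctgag
Adk, second start, chr14:21075902-21076151, plus strand: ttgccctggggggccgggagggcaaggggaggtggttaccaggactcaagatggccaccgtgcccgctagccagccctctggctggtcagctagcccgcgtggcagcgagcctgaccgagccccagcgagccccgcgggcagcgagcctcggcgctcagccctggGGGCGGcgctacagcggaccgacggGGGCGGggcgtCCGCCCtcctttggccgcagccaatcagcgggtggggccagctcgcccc
Entpd1, first start, chr19:40612116-40612365, plus strand: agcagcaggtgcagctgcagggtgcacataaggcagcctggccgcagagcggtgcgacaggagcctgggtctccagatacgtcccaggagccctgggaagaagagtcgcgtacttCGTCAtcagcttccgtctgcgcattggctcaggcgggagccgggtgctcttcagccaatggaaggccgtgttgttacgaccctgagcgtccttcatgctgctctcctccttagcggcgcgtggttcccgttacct
Entpd1, second start, chr19:40659520-40659769, plus strand: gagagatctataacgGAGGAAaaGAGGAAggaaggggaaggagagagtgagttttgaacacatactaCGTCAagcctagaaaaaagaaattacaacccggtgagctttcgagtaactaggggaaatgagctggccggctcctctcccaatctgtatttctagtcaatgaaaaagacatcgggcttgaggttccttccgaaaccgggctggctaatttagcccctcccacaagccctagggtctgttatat
Slc29a3, chr10:60752783-60753032, minus strand: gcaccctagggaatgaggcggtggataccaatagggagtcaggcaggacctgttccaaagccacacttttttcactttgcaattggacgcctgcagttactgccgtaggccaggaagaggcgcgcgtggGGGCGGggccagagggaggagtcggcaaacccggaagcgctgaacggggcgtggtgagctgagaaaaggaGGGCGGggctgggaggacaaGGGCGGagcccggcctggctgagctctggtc
GGGCGG occurred 2 times upstream of Entpd2, 2 and 3 times upstream of the Adk starts and 3 times upstream of Slc29a3, but in neither Entpd1 window. GAGGAA, a core that PU.1 binds in myeloid cells, occurred 2 times upstream of the second Entpd1 start and in none of the other windows shown. Among the windows not shown, GAGGAA occurred 3 times upstream of Entpd5 and once in some of the Slc29a1 windows. TGACG occurred once in each Entpd1 window and in the first Adk window, and TATAAA in none of these 6 windows. Such matches describe letters only.

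The fractions differed in their RNA for Entpd1 and Entpd2, whose enzymes make the first cut of extracellular nucleotides. In control astrocytes Entpd2 RNA was 82.2-fold higher than in control microglia, and in control microglia Entpd1 RNA was 26.3-fold higher than in control astrocytes. Adk was 20.3-fold higher in astrocytes, while Slc29a3 and Slc29a1 were 9.12-fold and 4.38-fold higher in microglia. These 5 of the 10 genes passed the test between AAV-GFP astrocytes and AAV-GFP microglia (edgeR quasi-likelihood test over 18602 genes, adjusted p under 0.05 and a log2 change over 0.32), where 26.7% of all genes tested passed. At an unadjusted p under 0.05 there were 5 of 10 too, against 39.6% of all genes. By direction, 2 of 10 were higher in astrocytes, against 12.3% of all genes, and 3 of 10 were lower, against 14.4%. The median log2 difference, astrocytes less microglia, was -1.26 for the 10 genes and -0.109 for all genes tested. Fraction and set of libraries coincide and cannot be told apart, and in sorted bulk RNA fewer cells of a type and less RNA per cell cannot be told apart either.

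**Figure D1:**
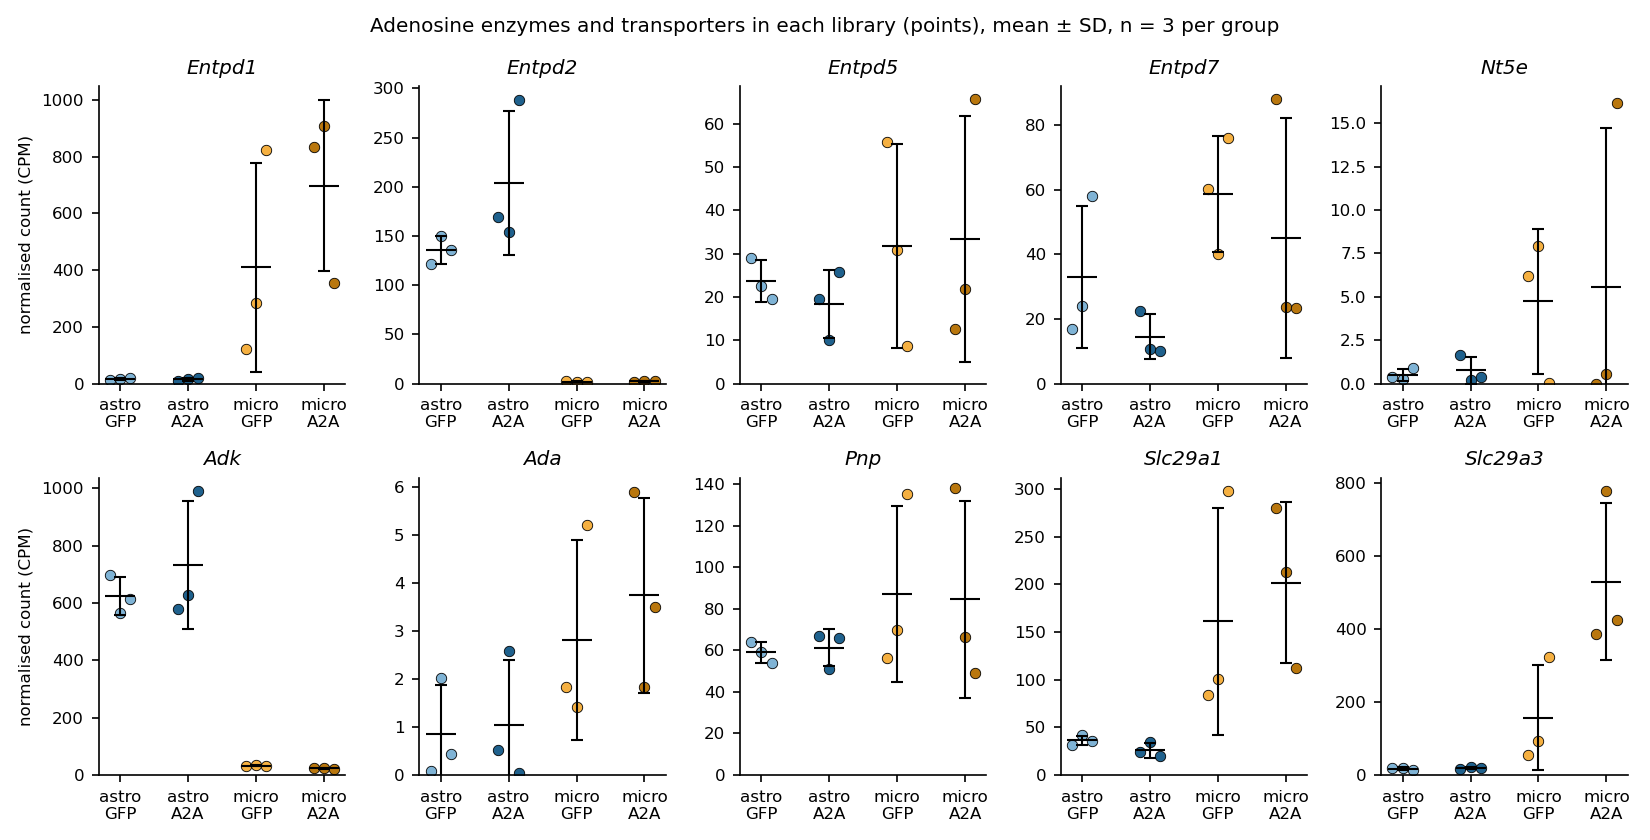
Normalised counts (CPM, linear axes from 0) of the 10 genes in each of the 12 libraries, by fraction (astro, micro) and vector (GFP, A2A). Points are libraries, long bars the mean and whiskers the SD (n = 3), which are cut at 0 where they would fall below it, and Entpd2 and Adk are high in astrocytes where Entpd1 and Slc29a3 are high in microglia.

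Entpd1 (chr19:40612366-40741602 on GRCm38), which encodes CD39, cuts ATP and ADP down to AMP. It stood at 12.7, 15.4 and 18.4 CPM in the AAV-GFP astrocytes and at 10.1, 15.9 and 18.4 CPM in the AAV-A2A astrocytes, here and below in the order of the library numbers. In microglia it stood at 121, 283 and 825 CPM in GFP-2328, GFP-2329 and GFP-2331 and at 834, 909 and 353 CPM in A2A-2343, A2A-2344 and A2A-2347. All 6 microglia libraries lay above all 6 astrocyte libraries, and within microglia the 3 libraries rich in choroid plexus transcripts were the 3 lowest. The log2 difference between the control fractions was -4.72 (SE 0.71, adjusted p = 8.1e-04), or -3.64 (SE 0.50, adjusted p = 5.5e-04) without GFP-2331, the control library with the most Entpd1. With GFP-2331 as the only control microglia library it was -5.78. Per 1000 counts on the microglial markers, Entpd1 had 11.6 to 16.7 counts in the microglia libraries and 16.1 to 45.3 counts in the astrocyte libraries. The part of microglial RNA in the astrocyte value was not tested.

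Entpd2 (chr2:25395874-25401321), which prefers ATP and releases ADP, had the opposite distribution. It measured 121, 149 and 136 CPM in the AAV-GFP astrocytes, and 170, 154 and 288 CPM in the AAV-A2A astrocytes. Microglia had 2.36, 1.36 and 1.39 CPM with AAV-GFP and 1.72, 2.52 and 2.56 CPM with AAV-A2A. Every astrocyte library exceeded every microglia library, with A2A-313 the highest of all. The log2 difference between the control fractions was 6.36 (SE 0.37, adjusted p = 4.2e-06). Per 1000 counts on the astrocyte markers, Entpd2 had 4.01 to 7.31 counts in astrocyte libraries and 3.11 to 6.41 counts in microglia libraries, ranges that overlap. Per kilobase of exon, Entpd1 made up 2.22 to 4.90% of the sum of Entpd1 and Entpd2 in the astrocyte libraries and 95.1 to 99.6% in the microglia libraries. Exons of Entpd2 overlap those of Npdc1 by 612 bases, and 29.9% of the 50-base windows of its longest transcript also occur in Npdc1, which makes its count uncertain.

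Entpd5 and Entpd7 encode relatives that act inside the secretory pathway on nucleoside diphosphates and triphosphates. Entpd5 measured 29.1, 22.5 and 19.4 CPM in AAV-GFP astrocytes and 19.5, 9.99 and 25.7 CPM in AAV-A2A astrocytes. Microglia had 55.8, 30.9 and 8.59 CPM with AAV-GFP and 12.5, 21.9 and 65.7 CPM with AAV-A2A. Within microglia the 3 highest libraries were the 3 rich in choroid plexus transcripts. The difference between the control fractions, -0.35 (SE 0.65, adjusted p = 0.719, 95% interval -1.77 to 1.07), did not pass the test, and it turned to 1.42 (adjusted p = 0.122) without those 3 libraries. Entpd7 measured 17.0, 24.1 and 58.0 CPM in AAV-GFP astrocytes against 22.5, 10.8 and 10.2 CPM in AAV-A2A astrocytes, with GFP-307 alone at the top. Microglia had 60.1, 40.1 and 76.0 CPM with AAV-GFP and 88.1, 23.8 and 23.5 CPM with AAV-A2A, groups that overlap. Its control fractions differed by -0.79 (SE 0.62, adjusted p = 0.369), which did not pass. The AAV-A2A fractions differed by -1.67 (SE 0.63, adjusted p = 0.0492). Between the AAV-A2A fractions 8557 of 18602 genes passed, against 4968 between the control fractions. The difference between the vector effects on Entpd7 did not pass in edgeR (-0.88, SE 0.88, adjusted p = 0.620). Exons of Entpd7 overlap Cox15 on the other strand by 444 bases, and its count is uncertain to that extent.

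Nt5e (chr9:88327197-88372092), which encodes CD73 and forms adenosine from AMP, was scarce in both fractions apart from the libraries rich in choroid plexus transcripts. Its raw counts were 14, 9 and 34 in the AAV-GFP astrocytes and 60, 9 and 18 in the AAV-A2A astrocytes, or 0.213 to 1.66 CPM. In microglia the levels were 6.22, 7.95 and 0.0254 CPM with AAV-GFP and 0, 0.565 and 16.2 CPM with AAV-A2A. The 3 libraries above the rest were GFP-2328, GFP-2329 and A2A-2347, and the count of 0 in A2A-2343 allows at most 0.0817 CPM. The control fractions differed by -3.15 (SE 1.95, adjusted p = 0.253, 95% interval -7.42 to 1.12), and the value turned to 4.11 (adjusted p = 0.347) without the 3 libraries. The part of choroid plexus RNA in these Nt5e counts was not tested. Alpl, which encodes a tissue-nonspecific phosphatase that can also form adenosine from AMP, averaged 14.5 CPM per kilobase in the 6 astrocyte libraries and 10.9 in the 6 microglia libraries, with ranges of 10.3 to 23.4 and 4.92 to 17.4.

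**Figure D2:**
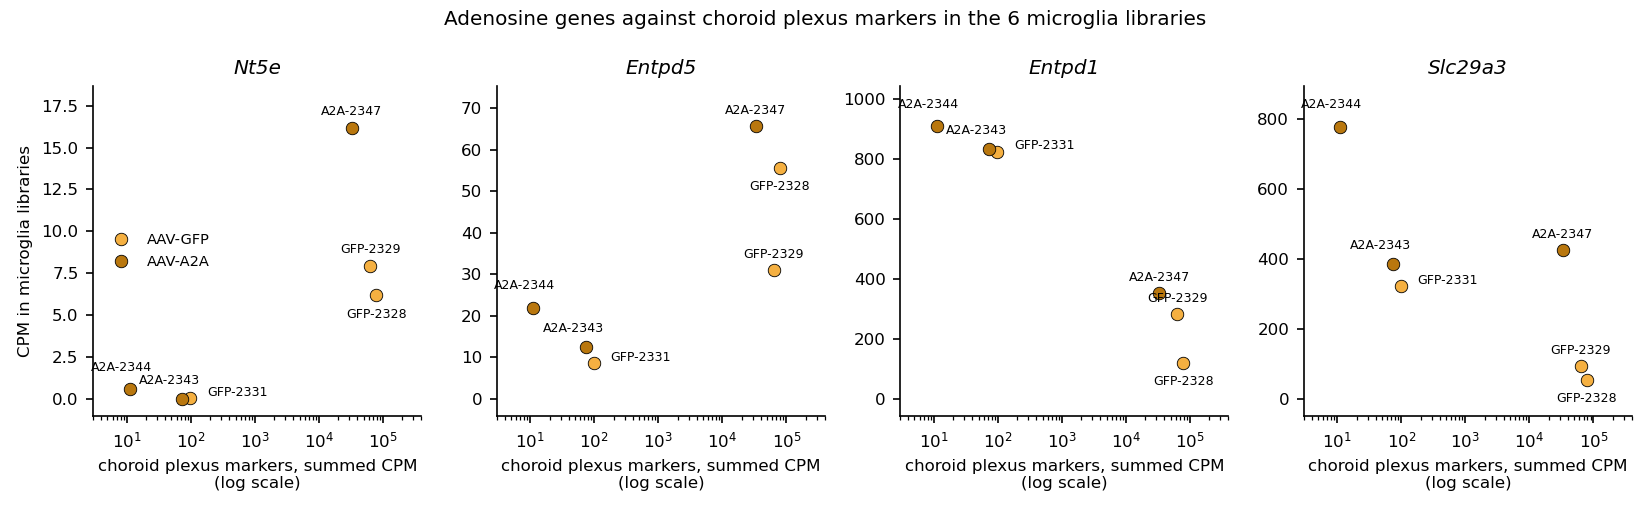
CPM of 4 genes (linear vertical axes) against the summed CPM of 8 choroid plexus markers (log horizontal axis) in the 6 microglia libraries, coloured by vector. Nt5e and Entpd5 are highest in the 3 libraries on the right, Entpd1 is lowest in them, and for Slc29a3 A2A-2347 lies above GFP-2328 and GFP-2329.

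Adk (chr14:21052574-21448569) phosphorylates adenosine to AMP. It measured 698, 565 and 613 CPM in the AAV-GFP astrocytes and 578, 629 and 990 CPM in the AAV-A2A astrocytes, where A2A-313 was again the highest. In microglia it measured 30.0, 33.5 and 31.7 CPM with AAV-GFP and 25.2, 23.9 and 21.8 CPM with AAV-A2A. The fractions did not overlap. The log2 difference between the control fractions was 4.35 (SE 0.30, adjusted p = 7.47e-06). Per 1000 counts on the astrocyte markers, Adk had 20.1 to 25.1 counts in the astrocyte libraries and 42.4 to 90.0 counts in the microglia libraries.

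Ada, which deaminates adenosine, was scarce. Its raw counts were 3, 68 and 17 in AAV-GFP astrocytes and 19, 109 and 2 in AAV-A2A astrocytes, so that libraries of 1 group differed more than the groups did. In microglia the counts were 93, 60 and 205 with AAV-GFP and 216, 65 and 190 with AAV-A2A, or 1.41 to 5.88 CPM. The difference between the control fractions was -1.72 (SE 1.31, adjusted p = 0.355), which did not pass. Per kilobase of exon, Adk made up 98.3 to 99.98% of the sum of Adk and Ada in the astrocyte libraries and 50.1 to 84.8% in the microglia libraries. Thus Adk RNA exceeded Ada RNA in every library, with the closest levels in A2A-2343.

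Pnp, which cleaves inosine and guanosine, lay between 48.9 and 138 CPM in all 12 libraries. It measured 64.3, 59.1 and 53.8 CPM in AAV-GFP astrocytes and 66.8, 51.0 and 66.2 CPM in AAV-A2A astrocytes. Microglia had 56.2, 69.6 and 135 CPM with AAV-GFP and 138, 66.4 and 48.9 CPM with AAV-A2A, with GFP-2331 and A2A-2343 apart from the others. The control fractions differed by -0.53 (SE 0.43, adjusted p = 0.384, 95% interval -1.48 to 0.41), and by -1.24 (adjusted p = 0.0338) without the 3 libraries rich in choroid plexus transcripts, where the only control microglia library left was GFP-2331. Of the 50-base windows of its longest transcript, 28.7% also occur in other genes, 438 of them in the paralogue Pnp2, so its count is uncertain.

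Slc29a1 (chr17:45585200-45599606) encodes ENT1, the equilibrative nucleoside transporter of the plasma membrane. It measured 31.5, 41.5 and 36.0 CPM in AAV-GFP astrocytes and 23.7, 34.8 and 19.7 CPM in AAV-A2A astrocytes. In microglia it measured 84.1, 101 and 298 CPM with AAV-GFP and 280, 213 and 112 CPM with AAV-A2A, all above every astrocyte library. The log2 difference between the control fractions was -2.13 (SE 0.53, adjusted p = 0.0121), and it no longer passed without GFP-303 (-2.04, adjusted p = 0.0517). Without GFP-2331, the control library with the most Slc29a1, it was -1.28 (adjusted p = 0.0392). With GFP-2331 as the only control microglia library it was -3.08. Exons of Slc29a1 overlap Gm17080 on the other strand by 275 bases, which makes its count uncertain to that extent.

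Slc29a3 (chr10:60712072-60752794) encodes ENT3, a nucleoside transporter of lysosomes. It measured 20.0, 18.0 and 13.3 CPM in AAV-GFP astrocytes and 17.0, 22.2 and 20.3 CPM in AAV-A2A astrocytes. In microglia it measured 55.4, 93.3 and 323 CPM with AAV-GFP and 386, 776 and 424 CPM with AAV-A2A. All AAV-A2A microglia lay above all AAV-GFP microglia. The log2 difference between the control fractions was -3.19 (SE 0.61, adjusted p = 0.0031), or -2.05 (adjusted p = 0.0028) without GFP-2331. Per kilobase of exon, Slc29a1 made up 58.5 to 79.7% of the sum of Slc29a1 and Slc29a3 in the astrocyte libraries. In microglia it made up 57.3 to 68.9% with AAV-GFP and 27.8 to 51.3% with AAV-A2A, which is given as a description.

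Levels were ordered between genes as CPM per kilobase of exon (mean ± SD, n = 3). In AAV-GFP astrocytes Adk led at 73.3 ± 7.88, followed by Entpd2 at 63.7 ± 6.57, whose libraries overlap those of Adk, by Pnp at 14.8 ± 1.31 and by Slc29a1 at 9.06 ± 1.25. Entpd5, Entpd7, Slc29a3 and Entpd1, at 2.77 to 3.92 on this scale, each overlapped the next of these 4, and Ada (0.422 ± 0.514) and Nt5e (0.0584 ± 0.0394), which overlap too, closed the order. In AAV-GFP microglia the order was Entpd1 (73.4 ± 66.0), Slc29a1 (40.2 ± 29.7), Slc29a3 (27.0 ± 24.8) and Pnp (21.9 ± 10.7), of which each overlapped the next. Entpd7, Entpd5, Adk, Ada, Entpd2 and Nt5e followed at 6.55 to 0.550, and the only neighbours without overlap among all 10 were Pnp and Entpd7, and Adk and Ada. These means pool libraries that differ, since in GFP-2331 Entpd5 (1.42) stood below Ada (2.60) and Adk (3.71), and in GFP-2328 Pnp (14.1) stood above Slc29a3 (9.50). On average 8 of the 10 genes reached 1 CPM per kilobase in control astrocytes and 8 in control microglia. With AAV-A2A the first 4 in astrocytes were the same genes, with Entpd2 (95.8 ± 34.4) before Adk (85.9 ± 26.3), 2 genes that overlapped. The order of these 2 genes depends on the length used. Per kilobase of the longest annotated transcript, Adk led Entpd2 in AAV-GFP astrocytes without overlap, at 133 to 164 against 62.8 to 77.3. On that scale Adk also led in AAV-A2A astrocytes, at 136 to 233 against 79.65 to 149, ranges that overlap.

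Whether the receptor changed the RNA of genes that act on its own ligand was asked first in astrocytes, where GfaABC1D is meant to act. None of the 10 genes passed the test between AAV-A2A and AAV-GFP astrocytes, where 3.36% of the 16451 genes tested passed in edgeR. DESeq2 called 0 of the 10 too, against 1263 of 18448 genes, and limma-voom 0 of the 10, against 599 of 16451 genes. At an unadjusted p under 0.05 there were 2 of 10, Entpd2 and Entpd7, against 13% of all genes (2141 of 16451). The groups did not overlap for 1 of 10, Entpd2, against 19.6% of all genes, and 8.61% had all AAV-A2A libraries above the AAV-GFP ones as Entpd2 had. The median log2 fold change was 0.13 for the 10 genes and 0.0217 for all genes tested.

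Entpd2 had a log2 fold change of 0.59 (SE 0.25, adjusted p = 0.338, 95% interval 0.04 to 1.14), which did not pass the threshold in edgeR. Without A2A-313, where the astrocyte markers summed to 39430 CPM against 25030 to 30290 CPM in the others, the value was 0.25 (SE 0.17, adjusted p = 0.612). Per 1000 counts on these markers Entpd2 had 4.01 to 5.42 counts with AAV-GFP and 5.62 to 7.31 with AAV-A2A, groups that do not overlap, which is given as a description. Entpd7 had a log2 fold change of -1.19 (SE 0.49, adjusted p = 0.327, 95% interval -2.28 to -0.10), or -0.51 (SE 0.43, adjusted p = 0.772) without GFP-307. Each value thus lost more than its SE with 1 library left out. Slc29a1 had -0.48 (SE 0.27, adjusted p = 0.519) and Entpd5 -0.36 (SE 0.36, adjusted p = 0.781), whose intervals reached from -1.08 to 0.12 and from -1.16 to 0.44.

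The intervals of the other genes differed in width. Adk had a log2 fold change of 0.23 (SE 0.23, adjusted p = 0.782) with a 95% interval of -0.28 to 0.73, and it came to -0.06 without A2A-313. Pnp had 0.05 (SE 0.19, adjusted p = 0.963), with an interval of -0.38 to 0.49. Slc29a3 had 0.21, with an interval of -0.40 to 0.82, and Entpd1 -0.06, with an interval of -0.77 to 0.65. For Nt5e (0.59, SE 1.13) and Ada (0.31, SE 1.47) the counts were too few to bound a change. A doubling and a halving, log2 changes of 1 in size, thus both lay outside the intervals of Adk, Pnp, Slc29a3 and Entpd1. Both lay inside those of Nt5e and Ada. The interval of Entpd2 held a doubling but no halving, and those of Slc29a1, Entpd5 and Entpd7 a halving but no doubling.

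**Figure D3:**
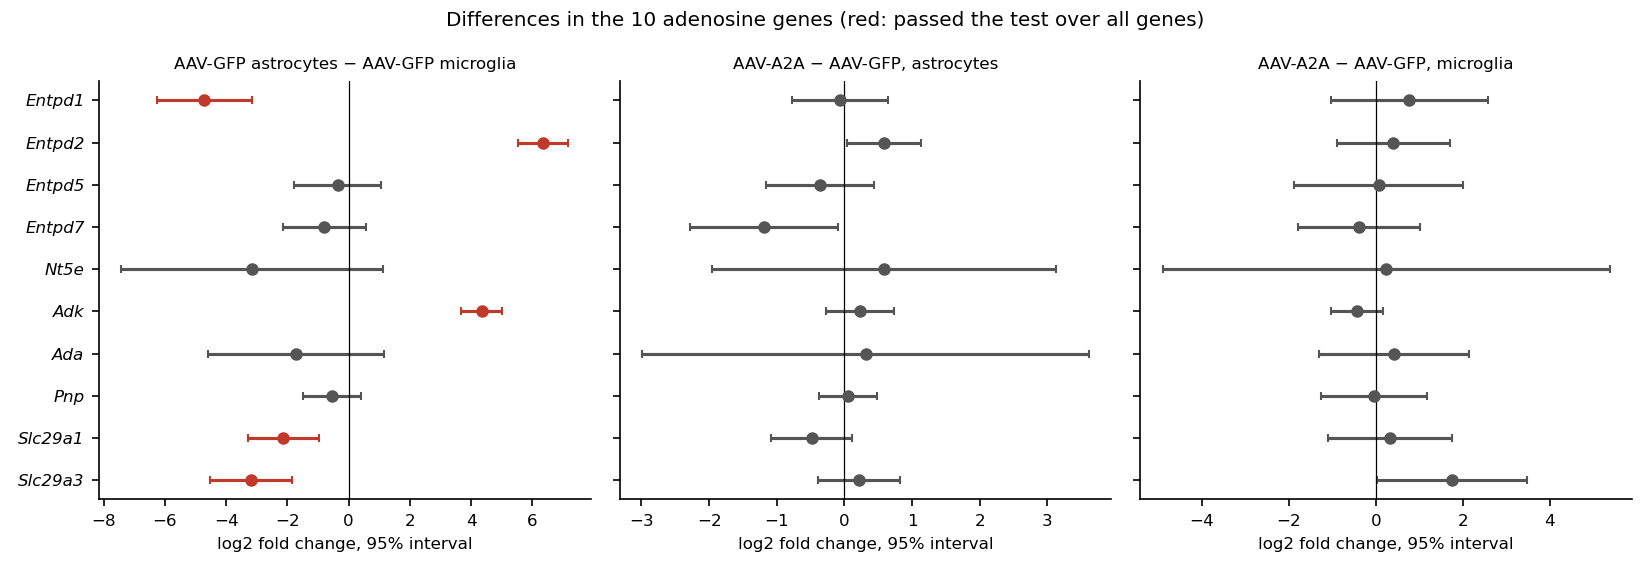
Log2 differences of the 10 genes with 95% intervals from edgeR, between the control fractions (left) and between the vectors in astrocytes (middle) and microglia (right), each panel with its own horizontal scale. Red points passed the test over all genes, which were Entpd1, Entpd2, Adk, Slc29a1 and Slc29a3 on the left and none in the other panels.

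In microglia, where GfaABC1D is not meant to act, the question was whether the receptor on astrocytes moved the same genes. None of the 10 genes passed the edgeR test, where 0.00% of the 16949 genes tested passed. With DESeq2 0 of the 10 passed as well, where 455 of 18494 genes passed, and with limma-voom 0 of the 10, where 0 of 16949 genes passed. At an unadjusted p under 0.05 there was 1 of 10, Slc29a3, against 16.0% of all genes. The groups did not overlap for 2 of 10, against 23.4% of all genes. Slc29a3 was the 1 that was higher with AAV-A2A, against 12.6%, and Adk the 1 that was lower, against 10.9%. Marker sums of other cells also separated these groups, since the 5 erythrocyte markers summed to 987 to 6132 CPM with AAV-GFP and to 61.5 to 242 CPM with AAV-A2A, the 10 neuronal markers to 29.7 to 228 and 6.57 to 16.6 CPM, and the 7 ependymal markers to 316.2 to 773 and 93.7 to 219 CPM. Their part in the members' values was not tested.

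Slc29a3 had a log2 fold change of 1.75 (SE 0.73, adjusted p = 0.310, 95% interval 0.02 to 3.48), or 3.36-fold. The AAV-GFP libraries with the lowest values, GFP-2328 and GFP-2329, were also rich in choroid plexus transcripts and had the lowest sums of microglial markers, while A2A-2347, with 32950 CPM of choroid plexus markers, was at 424 CPM. Without these 3 libraries, where A2A-2343 and A2A-2344 stand against GFP-2331 alone, the log2 fold change was 0.88 (adjusted p = 0.727). It was 1.47 (SE 0.48, adjusted p = 0.243) with the choroid plexus level as a covariate, and 1.28 (SE 0.75, adjusted p = 0.508) with the libraries scaled to the microglial markers. Without GFP-2331 it was 2.83 (SE 0.55, adjusted p = 0.132). Per 1000 counts on these markers, Slc29a3 had 4.51 to 5.50 counts with AAV-GFP and 5.36, 14.2 and 16.0 counts with AAV-A2A. On that scale the groups overlapped, with A2A-2343 among the AAV-GFP libraries.

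Entpd1 had a log2 fold change of 0.77 (SE 0.76, adjusted p = 0.642) in microglia. With 1 library left out it went from 0.34 (without GFP-2328) to 1.80 (without GFP-2331, adjusted p = 0.172), and with GFP-2331 as the only control it was 0.11. Per 1000 counts on the microglial markers it had 11.8 to 13.7 counts with AAV-GFP and 11.6 to 16.7 counts with AAV-A2A, ranges that overlap. Adk had -0.42 (SE 0.25, adjusted p = 0.436, 95% interval -1.02 to 0.17). Slc29a1 had 0.32 (SE 0.60, adjusted p = 0.813), and its value went from 0.019 (without GFP-2328) to 1.13 (without GFP-2331) and turned to -0.24 with GFP-2331 as the only control. The other 6 genes had log2 fold changes between -0.38 and 0.41, none with an adjusted p under 0.734.

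The difference between the vector effects in the fractions was tested for itself in the fit of all 12 libraries. It passed for 0 of the 10 genes, against 0.403% of all 18602 genes (0.0376% higher and 0.366% lower), with edgeR. It passed for 0 of 10 with DESeq2, against 1695 of 18791 genes, and for 0 of 10 with limma-voom, against 93 of 18602 genes. No member had an unadjusted p under 0.05, against 19.6% of all genes. The log2 difference, astrocytes less microglia, was -1.57 for Slc29a3 (SE 0.80, adjusted p = 0.304), -0.89 for Entpd1 (SE 0.87, adjusted p = 0.611) and 0.59 for Adk (SE 0.37, adjusted p = 0.415). Leaving out GFP-2331, the AAV-GFP library with the most Slc29a3, gave -2.71 for Slc29a3 (adjusted p = 0.0188), past the threshold. In that fit 1286 of 19454 genes passed, against 75 of 18602 in the main fit. Leaving out the 3 libraries rich in choroid plexus transcripts gave -0.69 (adjusted p = 0.636).

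Around these 10 genes stand 63 others of the pathway, of which 49 were tested in astrocytes, 52 in microglia and 53 between the fractions. In astrocytes 3 of 49 passed, all lower with AAV-A2A, and 0 were higher, against 3.19% and 0.176% of all genes. In microglia 0 of 52 passed with edgeR (0.00% of all genes), 0 with DESeq2 (455 of 18494 genes) and 0 with limma-voom (0 of 16949 genes). An unadjusted p under 0.05 in edgeR was found for 3 of 52, against 16.0% of all genes. The median log2 fold changes were 0.07 and -0.22.

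Ampd2 and Ampd3, the AMP deaminases that turn AMP into IMP and so away from adenosine, were both lower in AAV-A2A astrocytes. Ampd2 measured 73.7, 94.6 and 96.7 CPM with AAV-GFP and 38.7, 44.2 and 41.5 CPM with AAV-A2A, a log2 fold change of -1.09 (SE 0.19, adjusted p = 0.0130). Ampd3 measured 56.3, 56.2 and 45.0 CPM against 24.9, 26.5 and 25.1 CPM, a log2 fold change of -1.04 (SE 0.20, adjusted p = 0.0224). For both, no AAV-A2A library reached the lowest AAV-GFP library. In microglia Ampd3 measured 15.0, 11.4 and 19.5 CPM with AAV-GFP and 19.7, 59.5 and 40.8 CPM with AAV-A2A (log2 fold change 1.39, SE 0.46, adjusted p = 0.282). Ahcyl2, a relative of the enzyme that splits S-adenosylhomocysteine into adenosine and homocysteine, measured 76.3, 90.1 and 78.8 CPM in AAV-GFP astrocytes and 37.9, 20.5 and 21.7 CPM in AAV-A2A astrocytes, a log2 fold change of -1.61 (SE 0.27, adjusted p = 0.0100). In the fit of all 12 libraries, where the spread of the microglia libraries enters, none of the 3 passed, with adjusted p of 0.170, 0.305 and 0.798 for Ampd2, Ampd3 and Ahcyl2. In astrocytes the 8 choroid plexus markers summed to 583 to 636 CPM with AAV-GFP and to 652 to 1086 CPM with AAV-A2A. Ahcyl2 stood at 576, 260 and 657 CPM in GFP-2328, GFP-2329 and A2A-2347 and at 21.9 to 37.0 CPM in the other microglia libraries. Markers of oligodendrocyte precursors summed to 351 to 537 CPM in AAV-GFP astrocytes and to 146 to 286 CPM in AAV-A2A astrocytes. Of the 4 tested, Cspg4 alone passed (log2 fold change -2.17), Pdgfra (-0.39) and Olig1 (-0.26) were lower and C1ql1 (1.08) was higher. The part of either marker list in the values of Ampd2, Ampd3 and Ahcyl2 was not tested. The call was also lost without GFP-306 for all 3, at adjusted p of 0.0723, 0.104 and 0.0578, and leaving out single other libraries ended 1 or 2 of the calls. With 1 library left out the log2 fold changes went from -1.22 to -1.03 for Ampd2, from -1.15 to -0.99 for Ampd3 and from -1.95 to -1.46 for Ahcyl2, while Ampd3 lost its call in 5 of 6 such fits and each of the others in 3 of 6.

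**Figure D4:**
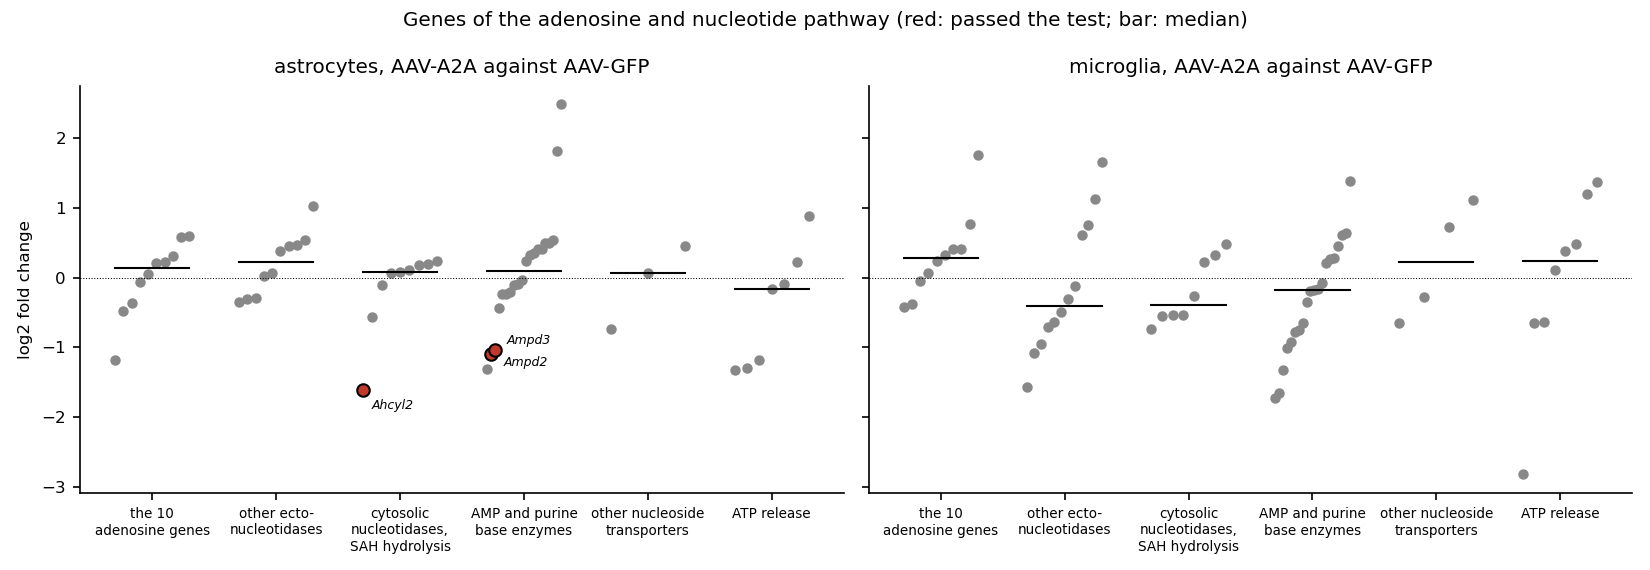
Log2 fold change (AAV-A2A against AAV-GFP) of every tested gene of the adenosine and nucleotide pathway in astrocytes (left) and microglia (right), by list, with a bar at the median of each list. Ahcyl2, Ampd2 and Ampd3 (red) passed the test in astrocytes, and no gene passed in microglia.

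Between the control fractions 19 of the 53 pathway genes passed, 13 higher in astrocytes and 6 lower, against 12.3% and 14.4% of all genes. Of the intracellular nucleotidases, the S-adenosylhomocysteine hydrolase and its relatives, 5 of 9 were higher in astrocytes and 0 lower. Among them were Nt5c (log2 difference 1.75, SE 0.31, adjusted p = 0.0020), which dephosphorylates nucleoside monophosphates, and Ahcyl1 (2.12, SE 0.49, adjusted p = 0.0087), a relative of the hydrolase. The hydrolase Ahcy itself did not pass in edgeR (1.30, SE 0.68, adjusted p = 0.178) or limma-voom, while DESeq2 called it, among 6760 of 19757 genes. Of the channels and carriers that can release ATP, 3 of 8 were higher, the connexins Gja1 (6.38, SE 0.56), Gjb6 (6.69, SE 0.67) and Gjb2 (5.17, SE 0.56), of which Gja1 is itself among the astrocyte markers. In microglia 2 of these 8 were higher, Calhm2 and Slc17a9, the latter known as the vesicular nucleotide transporter, at 4.42 CPM per kilobase over the 6 microglia libraries. Of the AMP and purine base enzymes 3 of 20 were higher and 3 lower, with the salvage enzyme Hprt lower in astrocytes (-1.87, SE 0.35, adjusted p = 0.0029) and the adenylate kinase Ak3 higher (1.06, SE 0.34, adjusted p = 0.0389). Of the other ectonucleotidases 1 of 12 passed, Cd38 (3.89, SE 0.32, adjusted p = 1.74e-05), an NAD-consuming surface enzyme that was higher in astrocytes.

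Of the other nucleoside transporters, Slc29a2, which encodes ENT2, was higher in control astrocytes (2.86, SE 0.38, adjusted p = 3.51e-04), at 11.9 CPM per kilobase over the 6 astrocyte libraries and 2.26 over the 6 microglia libraries. Within the equilibrative family, RNA of ENT2 was thus higher in astrocytes where RNAs of ENT1 and ENT3 were higher in microglia. Slc28a2, a concentrative transporter, was lower in astrocytes, but near 0 in both fractions (0.0400 and 0.386 CPM per kilobase). Slc29a4, which encodes the monoamine and adenosine transporter PMAT, ranged from 0.0476 to 166 CPM per kilobase across the microglia libraries, and Enpp2, an ectonucleotidase relative that makes lysophosphatidic acid, from 2.73 to 5712. Neither passed between the fractions in edgeR, at adjusted p of 0.104 and 0.0596. DESeq2 called both, among 6760 of 19757 genes, and limma-voom called neither, among 5538 of 18602 genes.

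Across the 12 libraries the genes most like 4 of the 10 were listed as a description (Pearson r of log2 CPM over 12 libraries, genes with a mean of at least 5 CPM), where the points share their fraction and so mostly separate by it. Lcp2 (r = 0.996) and Ctsd (r = 0.995) were most like Entpd1. Prss50 (r = 0.997) and Agt (r = 0.996) were most like Entpd2, and Tagln3 and Scg3 (both r = 0.997) most like Adk. Morc3 (r = 0.992) and Dgkz (r = 0.990) were most like Slc29a3.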

How the data were processed

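The authors sorted cells with ACSA-2 and then CD11b beads, amplified poly(A) RNA with SMART-Seq v4, sequenced it in single-end mode (50 bases), trimmed reads with cutadapt 1.10, aligned them to mm10 with STAR 2.5.3 and counted uniquely aligned, unambiguous reads per gene with HTSeq 0.6.1p1. Reads on overlapping genes are discarded by this, and no strand setting is named. The deposited raw counts are not normalized. Across the tables, 25 columns without a name held no values and were not used.

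The counts were tested in R 4.3.3 with edgeR 4.0.16 (TMM, filterByExpr, robust quasi-likelihood), Benjamini-Hochberg over all genes tested, with the thresholds the study used (adjusted p under 0.05, log2 change over 0.32). Vectors were compared within each fraction. The fractions were compared, and the vector effects set against each other, in 1 fit of all 12 libraries. Alternatives used DESeq2 1.42.0, limma-voom 3.58.1, other scaling and filters and each library left out. Each library carries its own number in its title. Log2 CPM used a prior count of 2, and lengths came from GENCODE on GRCm38. Fits were tested on simulated counts. Figures used matplotlib 3.10.9.

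All 10 members are named. Of the other pathway genes, those called between vectors and the 5 most abundant per list and fraction could be named. Ahcy is named besides these, as the hydrolase of its list. Members and lists were chosen with earlier results of these data known. Of the listed pathway and marker genes, Entpd4, Entpd4b, Entpd8, Enpp7, Ampd1, Calhm1 and Slc28a2b were not analysed here.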

Additional observations from a re-analysis of the deposited data

Results flagged for a closer look

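By CPM Ampd3, the AMP deaminase, was lower in all 3 AAV-A2A astrocyte libraries than in any AAV-GFP astrocyte library. In microglia it was higher in all 3 AAV-A2A libraries than in any AAV-GFP library. There the separation rests on A2A-2343 at 19.71 CPM against GFP-2331 at 19.52 CPM, whose raw counts were 724 and 770. Of all genes, 10.9% were lower without overlap in astrocytes and 12.6% were higher without overlap in microglia. The share of genes with both was not computed. The difference between the vector effects, astrocytes less microglia, was -2.47 on the log2 scale (SE 0.52), with an adjusted p of 0.0614 in edgeR, which did not pass the threshold. DESeq2 called it, among 1695 of 18791 genes, and limma-voom did not, among 93 of 18602 genes.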

How the results depend on the processing

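All 744 values recomputed under an alternative, counts of genes included, were set against the main ones. Of these, 683 kept their direction and their side of the threshold or, for counts, stayed equal or close. Of the rest, 36 values changed direction, 15 lost their call, 3 gained a call and 7 counts moved further. The count of members that passed stayed at 0 in astrocytes and in microglia under each alternative, and between fractions it went from 4 to 5 with single libraries left out. Members whose vector effect differed between fractions numbered 0 to 1, the latter without GFP-2331, where 1286 of 19454 genes passed. With single libraries left out, log2 fold changes that crossed 0 went in astrocytes from -0.26 to 0.15 for Entpd1, -0.71 to 1.28 for Nt5e, -0.056 to 0.37 for Adk, -1.56 to 2.00 for Ada and -0.014 to 0.17 for Pnp. In microglia they went from -0.87 to 0.76 for Entpd5, -4.04 to 0.83 for Nt5e, -0.077 to 1.20 for Ada and -0.58 to 0.43 for Pnp. Between fractions Entpd5 went from -0.79 to 0.30, and the difference between vector effects on Entpd2 from -0.20 to 0.28. Scaled to the microglial markers, values in microglia turned to -0.94 for Entpd2, -1.23 for Entpd5, -0.69 for Nt5e, -0.39 for Ada and -0.54 for Slc29a1. Entpd5 in microglia also turned to -0.058 with library totals alone and to -0.037 with at least 10 counts in every library, and Nt5e to -0.98 in limma-voom. Slc29a1 in microglia turned to -0.16 with the choroid plexus level as a covariate. Without the 3 libraries rich in choroid plexus transcripts, Slc29a1 turned to -0.24 and Ada to -0.40 in microglia, Entpd5 to 1.42 and Nt5e to 4.11 between fractions, and the difference between vector effects on Entpd2 to -0.074. That fit leaves GFP-2331 as the only AAV-GFP microglia library, which is assumed to vary like the other groups. The causes were not tested. These 3 alternatives (markers, covariate, libraries left out) were chosen after seeing the data. Of the other pathway genes, 3 passed in astrocytes, where 553 of 16451 genes passed. With DESeq2 it was 5, where 1263 of 18448 genes passed. With at least 10 counts in every library it was 5, where 751 of 13593 genes passed. In the fit of all 12 libraries it was 0, where 156 of 18602 genes passed. With single libraries left out it was 0 to 3, where 272 of 17360 to 448 of 17204 genes passed. No paired analysis was made, because the groups compared share no replicate numbers. Whether astrocyte and microglia libraries share animals cannot be told from these numbers. Low counts limit Nt5e and Ada in astrocytes, and so also between the fractions. In microglia the libraries differed widely, with 0 to 879 counts on Nt5e (SE 2.16) and 60 to 216 counts on Ada (SE 0.72).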
